A study of Mus musculus with 6 samples.

Results

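Sialyltransferases are Golgi enzymes that transfer sialic acid from a nucleotide-sugar donor to the ends of glycan chains, and 9 genes of this family are described here in sorted fetal DN2 thymocytes: St6gal1, St3gal1, St3gal2, St3gal3, St3gal4, St3gal5, St3gal6, St8sia1 and St8sia4. They were read by all 22 probe sets that the array annotation gives to exactly 1 of the 9 genes, out of 45037 probe sets, and St3gal4 alone had a single one. The genes were selected on measured values, namely the log2 intensities of E2A-deficient against wild-type arrays, with St6gal1 taken for its high signal in the E2A-deficient cells and the others as its relatives. Their group differences are therefore given as a description with an error and no test. No filter on low values was applied, so all 22 probe sets are accounted for.

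Each array held cells sorted as DN2 from fetal thymus, and the groups were 3 E2A-deficient and 3 wild-type samples, all on the FVB background. DN2 cells are early thymocytes with neither CD4 nor CD8, the population in which blood progenitors turn into committed T-lineage cells. Tcf3 encodes E2A, that is, E12 and E47, which are helix-loop-helix activators of the E protein class. The E2A allele, the fetal age and the number of fetuses behind each sample are not given in the sources used here, and nothing says that replicates came from separate animals, so errors measure the spread between these samples only.

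The family is divided by the bond that each enzyme makes. St6gal1 places sialic acid on galactose of N-glycans in the alpha-2,6 linkage that the B-cell lectin CD22 binds and that hinders binding of several galectins. The St3gal enzymes use the alpha-2,3 linkage, on O-glycans, N-glycans or glycolipids. The St8sia enzymes add sialic acid to sialic acid: St8sia1 makes the ganglioside GD3, and St8sia4 builds the long polysialic acid chains best known from the neural adhesion molecule NCAM. In the thymus, sialic acid caps differ between maturation stages, and loss of peanut-agglutinin binding as thymocytes mature is tied to St3gal1.

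The arrays were alike in overall signal, with median intensities from 77.4 to 79.0 and upper quartiles from 131 to 136, in the linear array units of the deposited values. The targeted gene Tcf3 was lower in E2A-deficient arrays on its 3 probe sets, of which 2 passed (limma adjusted p = 0.00864 and 0.0292) and the last did not (0.0926). The probe sets for Kit and Il2ra, which define the DN2 stage, lay above the upper quartile in both groups, while Cd4, Cd8a and Ptcra did not. Of 8 measured DN2 markers 0 were called higher and 1 lower. The latter was Thy1, at 146 in E2A-deficient and 370 in wild-type cells (log2 difference -1.32, limma adjusted p = 0.00257). Il7r was lower without passing (-0.37, 0.499). Across all probe sets limma called 543 higher and 261 lower in the E2A-deficient group (adjusted p under 0.05). Xist, which marks female cells, read 58.7 on wild-type replicate 3 and 3055 and 4456 on the other wild-type arrays. It read 1901, 1247 and 2154 on the E2A-deficient arrays, so the sexes were mixed unequally. The ratio of 5' to 3' beta-actin signal, a sign of RNA length, was 0.165, 0.160 and 0.149 on the E2A-deficient arrays and 0.104, 0.162 and 0.0981 on the wild-type arrays.

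St6gal1 stood far apart from the rest of the family. Its brighter probe set, 1420928_at, read 458, 476 and 505 in E2A-deficient cells, against 98.1, 85.4 and 68.6 in wild-type cells. The groups did not overlap: the lowest E2A-deficient array was far above the highest wild-type array. The means were 479 ± 23.7 in E2A-deficient cells and 84.0 ± 14.8 in wild-type cells (SD, n = 3 each), a log2 difference of 2.51 (SE 0.124, 95% interval 2.22 to 2.80), or 5.70-fold. All folds are on the log2(intensity + 1) scale, where the floor of the deposited intensities is left in and the fold of a dim gene is understated. This difference ranked 14 of 45037 when probe sets were ordered from the highest difference down. On average the signal was at the 52.0th percentile of an array's probe sets in wild-type cells and at the 93.4th in E2A-deficient cells. Wild-type replicates 1 and 2 were above their array medians and replicate 3 was below. In these bulk samples, a larger share of cells with St6gal1 RNA and more of that RNA per cell cannot be told apart.

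The second St6gal1 probe set, 1420927_at, gave no such separation. It read 66.8, 69.2 and 64.5 in E2A-deficient cells and 69.1, 65.3 and 66.8 in wild-type cells. The groups overlapped, the log2 difference was -0.0049 (SE 0.0556, 95% interval -0.14 to 0.13), and every array was below its median. The 2 probe sets carry the same source sequence in the array annotation, and which part of the transcript each one reads was not analysed here. The difference of St6gal1 therefore rests on 1 of its 2 probe sets.

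**Figure D1:**
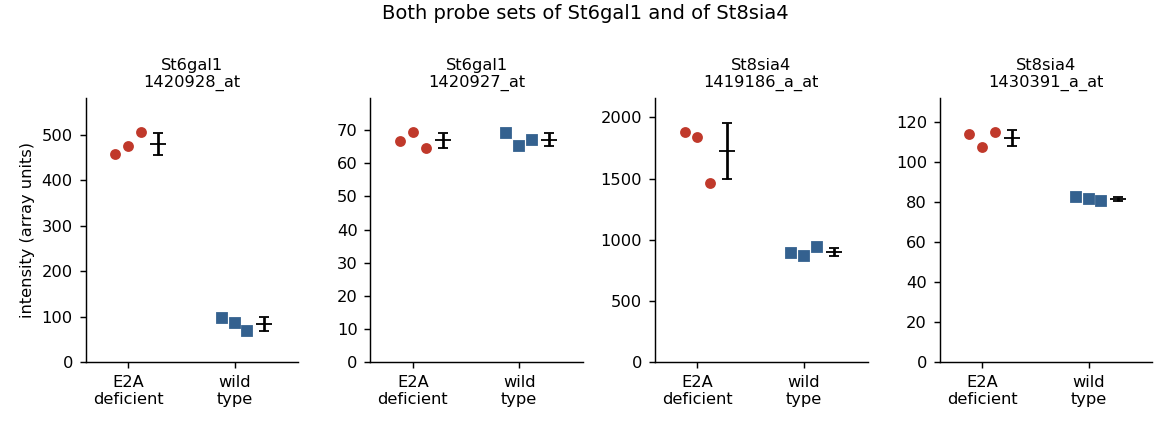
Intensity in array units (vertical axes, starting at 0) for both probe sets of St6gal1 and both of St8sia4, with 3 E2A-deficient arrays as circles, 3 wild-type arrays as squares, and the mean with its SD as a black bar beside each group. The groups are apart in 1420928_at, 1419186_a_at and 1430391_a_at and overlap in 1420927_at.

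St8sia4, the polysialyltransferase, was the other member with a clear separation, and on both of its probe sets. The brighter one, 1419186_a_at, read 1877, 1843 and 1463 in E2A-deficient cells, against 890, 872 and 938 in wild-type cells. All 3 E2A-deficient arrays were above all 3 wild-type arrays, with replicate 3 the lowest of its group. The log2 difference was 0.93 (SE 0.101, 95% interval 0.70 to 1.17), or 1.91-fold. Unlike St6gal1, this probe set was among the bright ones already in wild-type cells, at the 98.3rd percentile in E2A-deficient and the 96.9th in wild-type arrays. The dimmer probe set, 1430391_a_at, read 114, 108 and 115 in E2A-deficient cells and 82.7, 81.5 and 80.6 in wild-type cells. Its groups did not overlap either, with a log2 difference of 0.45 (SE 0.0536), or 1.37-fold.

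The beta-actin ratio, Xist and markers of other cell types were set beside these values. Wild-type replicate 2, whose beta-actin ratio of 0.162 lay within the E2A-deficient range, read 85.4 for St6gal1, between the other wild-type arrays, and 872 for St8sia4, the lowest of them. With that ratio in the model the log2 differences of the brighter probe sets were 2.46 for St6gal1 (SE 0.179) and 0.94 for St8sia4 (SE 0.147). Without wild-type replicate 3, the array low in Xist, they were 2.37 and 0.96. The wild-type arrays left in that fit read 3055 and 4456 for Xist, above all 3 E2A-deficient arrays (1247 to 2154). That fit therefore did not even out Xist between the groups, and an effect of sex was not tested. B cells are rich in St6gal1, and 7 of 9 fixed B-cell and plasma-cell markers were measured: their summed intensity was 510 to 544 in E2A-deficient and 509 to 556 in wild-type arrays, and 0 of 7 passed by limma. Pax5, Ebf1 and Ms4a1 averaged between 59.2 and 71.1 in both groups, below every array's median, whereas Cd79b was above it, at 131 in E2A-deficient and 140.4 in wild-type cells. The part of B cells in the St6gal1 signal was not tested. The 6 thymic epithelial markers summed to 516 to 559 in E2A-deficient and 481 to 502 in wild-type arrays, 0 of 6 passed, and the part of such cells in the St6gal1 signal was not tested. Within that list Krt8 did not overlap between the groups, at 110, 108 and 140 in E2A-deficient and 82.3, 77.9 and 99.2 in wild-type cells (log2 difference 0.46, limma adjusted p = 0.165), while Foxn1 and Psmb11 averaged 66.5 to 70.0, below the median of all arrays. The 7 myeloid markers summed to 1420 to 1657 in E2A-deficient and 1300 to 1552 in wild-type arrays, with Mpo as the brightest, and 1 of them, the lysozyme gene Lyz2, fell to 75.6 in E2A-deficient cells, against 107 in wild-type cells (log2 difference -0.50, limma adjusted p = 0.0222). The summed levels of NK and innate lymphoid markers (3 of 8 measured), erythroid markers (3 of 5) and mesenchymal and endothelial markers (5 of 5) overlapped between the groups, and 0 of these passed. The part of these cells in the St6gal1 signal was not tested either.

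The windows around the starts of both genes are shown because E2A proteins bind the E-box, CANNTG, and these are the members that were higher together. Sequences are RefSeq's of build GRCm38.p6, from 250 bases before to 50 bases after a transcript start, read 5′ to 3′ on the strand of the gene, with each CANNTG in capitals. St6gal1 has 3 listed starts and St8sia4 has 1.
St6gal1 start 1, chr16:23224490-23224789, + strand: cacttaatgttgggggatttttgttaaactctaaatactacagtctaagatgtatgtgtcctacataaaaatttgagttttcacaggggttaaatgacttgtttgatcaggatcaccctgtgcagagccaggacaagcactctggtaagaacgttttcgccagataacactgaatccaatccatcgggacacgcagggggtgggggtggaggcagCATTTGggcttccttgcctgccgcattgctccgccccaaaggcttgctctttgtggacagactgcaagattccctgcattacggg
St6gal1 start 2, chr16:23225771-23226070, + strand: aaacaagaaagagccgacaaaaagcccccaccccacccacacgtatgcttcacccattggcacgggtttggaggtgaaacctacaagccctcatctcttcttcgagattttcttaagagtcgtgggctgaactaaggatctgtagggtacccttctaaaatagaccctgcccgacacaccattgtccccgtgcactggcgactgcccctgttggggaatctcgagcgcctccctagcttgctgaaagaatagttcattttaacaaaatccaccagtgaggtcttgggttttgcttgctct
St6gal1 start 3, chr16:23290220-23290519, + strand: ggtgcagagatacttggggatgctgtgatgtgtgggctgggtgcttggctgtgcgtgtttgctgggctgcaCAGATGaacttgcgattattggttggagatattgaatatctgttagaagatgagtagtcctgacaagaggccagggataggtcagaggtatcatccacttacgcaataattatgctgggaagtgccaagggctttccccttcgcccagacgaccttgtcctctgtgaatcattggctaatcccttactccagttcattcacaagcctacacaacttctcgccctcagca
St8sia4 start 1, chr1:95667545-95667844, - strand: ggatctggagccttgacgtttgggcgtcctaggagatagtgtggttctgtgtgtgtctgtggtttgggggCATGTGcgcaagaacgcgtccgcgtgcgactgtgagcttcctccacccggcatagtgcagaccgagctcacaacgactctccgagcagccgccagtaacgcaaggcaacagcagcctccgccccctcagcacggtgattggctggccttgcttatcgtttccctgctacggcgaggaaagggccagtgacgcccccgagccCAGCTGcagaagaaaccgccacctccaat
The search covered both strands, since CANNTG reads the same way on either one in its fixed letters. For St6gal1 the motif was CATTTG, beginning 35 bases before the first listed start, and CAGATG, beginning 179 bases before the third, and the second window had none. For St8sia4 it was CATGTG, beginning 180 bases before the start, and CAGCTG, whose first base was base 22 of the transcript. CANNTG occurred in 72.3% of 32851 windows of the same length, and in 6 of the 10 windows listed for 7 of the 9 members. CAGCTG, one form of CANNTG, occurred in 16.3% of all windows and in 1 of the 10. Such a match describes the letters and is no evidence of binding.

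Of the genes that make the alpha-2,3 linkage, none came near St6gal1 in size. The 6 St3gal genes had 15 probe sets, with log2 differences from -0.16 to 0.26 and a median of 0.015, against 0.0039 for all probe sets of the array. In 2 of the 15 the E2A-deficient arrays were all higher than the wild-type arrays and in 2 they were all lower, so the groups overlapped in 11. Of all probe sets on the array, 10.1% were higher and 6.79% lower without overlap.

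St3gal5, which makes GM3, the first ganglioside of the main series, gave the highest of these values. Its brighter probe set, 1449198_a_at, read 142, 152 and 160 in E2A-deficient cells and 122, 124 and 133 in wild-type cells. The groups did not overlap, and the log2 difference was 0.26 (SE 0.0670), or 1.19-fold. Its other probe set, 1460241_a_at, was dim and overlapped, with a log2 difference of 0.023. St3gal3, which acts on N-acetyllactosamine chains, read 168, 148.45 and 168 in E2A-deficient cells and 144, 144 and 148.18 in wild-type cells on its brighter probe set, 1450406_a_at. The groups were only just apart, since E2A-deficient replicate 2 and wild-type replicate 3 were nearly equal, and the log2 difference was 0.15 (SE 0.0661). Its dim probe set, 1421915_a_at, gave 0.0070.

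St3gal1, which caps core O-glycans, was slightly lower on 1 of its 2 probe sets. Probe set 1441216_at read 98.1, 107 and 104 in E2A-deficient cells and 116, 109 and 121 in wild-type cells, a log2 difference of -0.16 (SE 0.0649) with no overlap. Its other probe set, 1418946_at, overlapped and gave -0.099. With the beta-actin ratio in the model the values were -0.075 for 1441216_at and 0.074 for 1418946_at. St3gal4, one of the enzymes behind selectin ligands, had 1 probe set, 1425668_a_at, with 68.5, 66.0 and 70.6 in E2A-deficient cells and 71.9, 73.7 and 72.7 in wild-type cells. The groups were apart by little, at a log2 difference of -0.090 (SE 0.0530), and all 6 values lay below the array medians.

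St3gal2, which also uses O-glycans and gangliosides, had 3 probe sets with log2 differences from -0.029 to 0.12, and St3gal6, another enzyme of N-acetyllactosamine chains, had 5 from -0.066 to 0.039. All 8 overlapped between the groups. Among the 5 St3gal6 probe sets only 1447841_x_at was above the median on every array, with means of 107 in E2A-deficient and 106 in wild-type cells, and its identifier marks it as able to bind unrelated transcripts.

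The alpha-2,8 enzymes went apart. St8sia1, the GD3 synthase, was dim throughout, with all 3 probe sets below the median of every array. Probe set 1455695_at read 60.0, 59.2 and 61.6 in E2A-deficient cells and 72.0, 65.8 and 70.3 in wild-type cells, without overlap, a log2 difference of -0.20 (SE 0.0574). Probe set 1419694_at did not overlap either, at -0.13 (SE 0.0568), while 1419695_at overlapped at -0.0085. These differences concern signals near the floor of the arrays, and with the beta-actin ratio in the model they were -0.13 for 1455695_at, -0.066 for 1419694_at and 0.10 for 1419695_at.

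**Figure D2:**
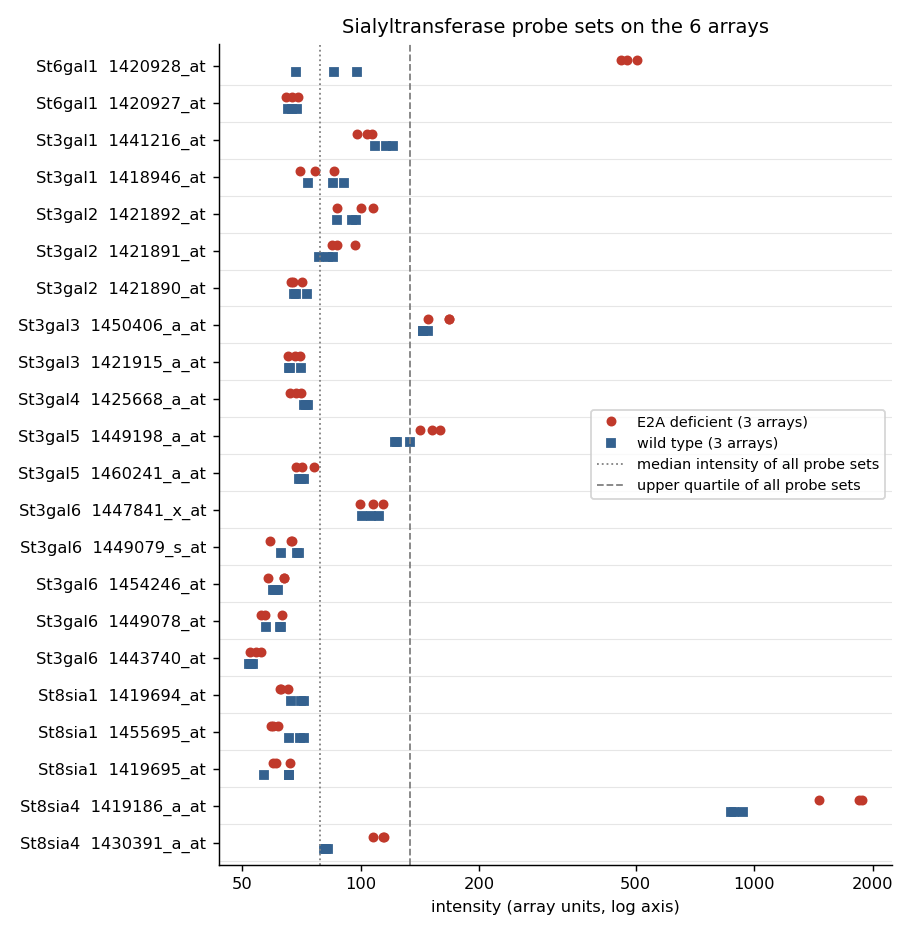
Intensity (array units, log axis) of each of the 22 sialyltransferase probe sets, 1 row each, with 3 E2A-deficient arrays as circles above 3 wild-type arrays as squares, and dotted and dashed lines at the median and upper quartile of all probe sets. Most rows lie near or below the median in both groups, St8sia4 1419186_a_at is bright in both, and St6gal1 1420928_at moves across the upper quartile.

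Over the whole family, 3 of the 22 probe sets passed the limma threshold, all higher in E2A-deficient cells, where 1.21% of all 45037 probe sets were called higher, and 0 passed lower, where 0.58% were called lower. These were the brighter St6gal1 and both St8sia4 probe sets, and because the members were chosen with this comparison known, nothing is read from the count. Without overlap 5 of the 22 were higher and 4 of the 22 lower, where 10.1% and 6.79% of all 45037 probe sets were. Nothing is read from these counts either. The median log2 difference over the 22 was 0.011. The other 19 probe sets, of 7 further genes and the dim St6gal1 set, had log2 differences between -0.20 and 0.26, and their 95% intervals together ran from -0.34 to 0.41, that is from 0.791-fold to 1.33-fold. A change as large as that of the bright St8sia4 probe set lay outside each of these intervals, on the scale of the deposited intensities with their floor. For dim probe sets that scale compresses any change of the transcript: 12 of the 22 lay below the median on all 6 arrays and 7 above it on all 6.

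Replicates agreed closely on most of the 22 probe sets, many of which were dim. The pooled within-group SD on the log2 scale had a median of 0.0732 over the 22 probe sets, against 0.0895 over all probe sets of the array. St6gal1 1420928_at had the highest SD of the 22, 0.189, at the 88.8th percentile of all probe sets. Its wild-type arrays were the more scattered ones on that scale. In St8sia4 1419186_a_at (0.147, the 78th percentile) the E2A-deficient arrays were, at 1728 ± 230 in E2A-deficient and 900 ± 34.5 in wild-type cells (SD, n = 3 each).

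**Figure D3:**
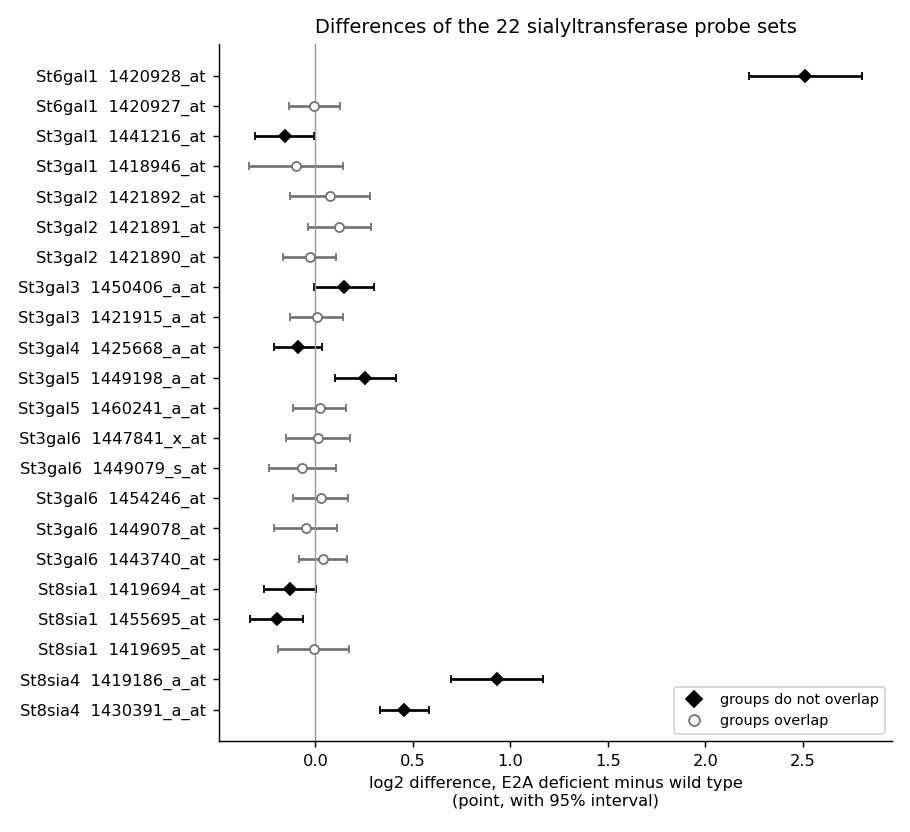
Log2 difference, E2A deficient minus wild type (horizontal axis), of each of the 22 probe sets with its 95% interval from the fit over all probe sets. Filled diamonds mark probe sets whose 3 E2A-deficient and 3 wild-type arrays do not overlap, and St6gal1 at 2.51 and St8sia4 at 0.93 and 0.45 are the points farthest to the right.

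The genes whose profile over the 6 arrays lay nearest to that of St6gal1 1420928_at were found by the root mean square difference of log2 values, each gene taken relative to its own wild-type mean. Of 18192 other genes the nearest was Sh2d1a, the signalling adaptor SAP, at 0.0694, with 341, 364 and 390 in E2A-deficient cells and 79.8, 61.8 and 56.3 in wild-type cells. As in St6gal1, the wild-type arrays were highest in replicate 1 and lowest in replicate 3. The chromatin protein Hmga2 (0.157), the kinase Sgk1 (0.161), the nuclear receptor Rora (0.281) and the nuclear protein Tox2 (0.300) came next. Hmga2, Rora and Tox2 had the same order of wild-type arrays, and Sgk1 did not. Both this order and the log2 differences of the 5 genes, from 2.13 to 2.64, are what the measure looks for and are no separate result.

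**Figure D4:**
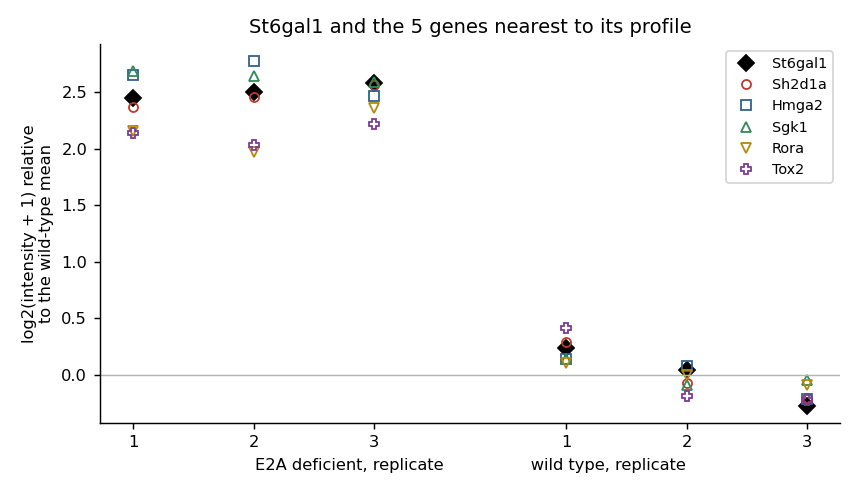
Log2(intensity + 1) relative to the wild-type mean (vertical axis) on each array for St6gal1 (filled diamonds) and the 5 genes nearest to it, with the 3 E2A-deficient arrays on the left and the 3 wild-type arrays on the right. The points lie between 1.97 and 2.78 in E2A-deficient arrays and between -0.27 and 0.41 in wild-type arrays.

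The surroundings of the family in sialic acid biology were read from 8 further lists of 79 genes, of which 74 were measured, each by its brightest probe set. Cd34 and Selplg rose and B3gnt2 and Thy1 fell, and the other 70 did not pass, where 1.92% of 18193 genes were called higher and 0.901% lower in the same fit. The median log2 difference over the 74 was 0.028. Of the 74, 17 had an unadjusted limma p under 0.05, where 16.2% of all genes had one. That share is the background for the counts of each list below.

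The sialyltransferases outside the 9 gave no call. Of 11 measured, among them the St6galnac enzymes that sialylate O-linked N-acetylgalactosamine, 0 passed by limma and 0 had an unadjusted p under 0.05. The smallest p-values belonged to St6galnac3 (-0.20, limma adjusted p = 0.477) and St8sia6 (0.33, 0.533).

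Genes for the supply and removal of sialic acid did not pass either. Of 10 genes of its synthesis, activation, transport and modification 0 passed by limma and 2 had an unadjusted p under 0.05. They were Nans, which condenses the sugar precursor into sialic acid phosphate, at 409 in E2A-deficient and 356 in wild-type cells (log2 difference 0.20, SE 0.0657, limma adjusted p = 0.240), and Siae, which removes acetyl groups from sialic acid (0.19, 0.294). The donor synthetase Cmas averaged 412 in E2A-deficient and 362 in wild-type cells and the Golgi donor transporter Slc35a1 200.19 and 195, and neither passed (limma adjusted p = 0.761 and 0.961). Of 5 measured genes of sialidases and lysosomal release 0 passed, with 0 unadjusted p under 0.05. The smallest p-values were those of the lysosomal exporter Slc17a5 (0.15, limma adjusted p = 0.488) and the sialidase Neu1 (0.10, 0.857).

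Enzymes that build the chains on which sialic acid is placed gave 1 call. B3gnt2, which extends N-acetyllactosamine repeats, had a mean of 136 in E2A-deficient and 257 in wild-type cells on its brighter probe set, a log2 difference of -0.91 (SE 0.0863, limma adjusted p = 0.00382), with no overlap between the groups. Its other probe set was lower as well (limma adjusted p = 0.0319). Among the 15 genes of the N-glycan list, 14 did not pass, including B4galt1, which supplies the galactose used by St6gal1 (269.85 in E2A-deficient and 273 in wild-type cells, log2 difference -0.020, limma adjusted p = 0.973). Of 8 genes of core O-glycans 0 passed by limma and 1 had an unadjusted p under 0.05, the initiating transferase Galnt1 (0.20, limma adjusted p = 0.316), followed by the chaperone C1galt1c1 (0.26, 0.465). Of 5 genes upstream of gangliosides 0 passed, with 0 unadjusted p under 0.05, and the 2 lactosylceramide synthases B4galt6 (0.14, limma adjusted p = 0.502) and B4galt5 (0.12, 0.768) had the smallest p-values.

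Among 10 measured glycoproteins that carry sialic acid, 2 rose and 1 fell, and with these 3 a total of 5 had an unadjusted limma p under 0.05. Cd34, a sialomucin of progenitors, averaged 372 ± 38.2 in E2A-deficient and 178 ± 25.6 in wild-type cells (SD, n = 3 each), a log2 difference of 1.07 (SE 0.123, limma adjusted p = 0.00816). Selplg, the selectin ligand PSGL-1, averaged 1110 ± 35.4 in E2A-deficient and 730 ± 55.5 in wild-type cells, at 0.61 (SE 0.0700, 0.00825). Thy1, a surface glycoprotein of thymocytes, fell to 146 ± 12.3 in E2A-deficient cells, against 370 ± 53.9 in wild-type cells, at -1.32 (SE 0.114, 0.00257). In all 3 genes the groups did not overlap. Once the beta-actin ratio was in the model, Cd34, Selplg and B3gnt2 missed the threshold, at limma adjusted p = 0.147, 0.0670 and 0.0580, with log2 differences of 0.98, 0.68 and -0.77. Thy1 passed in that model too (-1.55, limma adjusted p = 0.00954). The phosphatase Ptprc (CD45), a major lymphoid carrier of the alpha-2,6 linkage, averaged 1655 in E2A-deficient and 1577 in wild-type cells and did not pass (limma adjusted p = 0.818), and Ncam1 read 84.2 and 85.1 (0.972).

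Of 10 measured genes of lectins that bind sialic acid and of enzymes of selectin ligands 0 passed by limma, with 1 unadjusted p under 0.05. This was Siglecf, a receptor of the Siglec family, at 137 in E2A-deficient and 211 in wild-type cells (log2 difference -0.60, limma adjusted p = 0.124), and the fucosyltransferase Fut4 followed (-0.21, 0.400). Cd22, whose product binds the linkage made by St6gal1, averaged 85.6 in E2A-deficient and 79.1 in wild-type cells (limma adjusted p = 0.721).

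**Figure D5:**
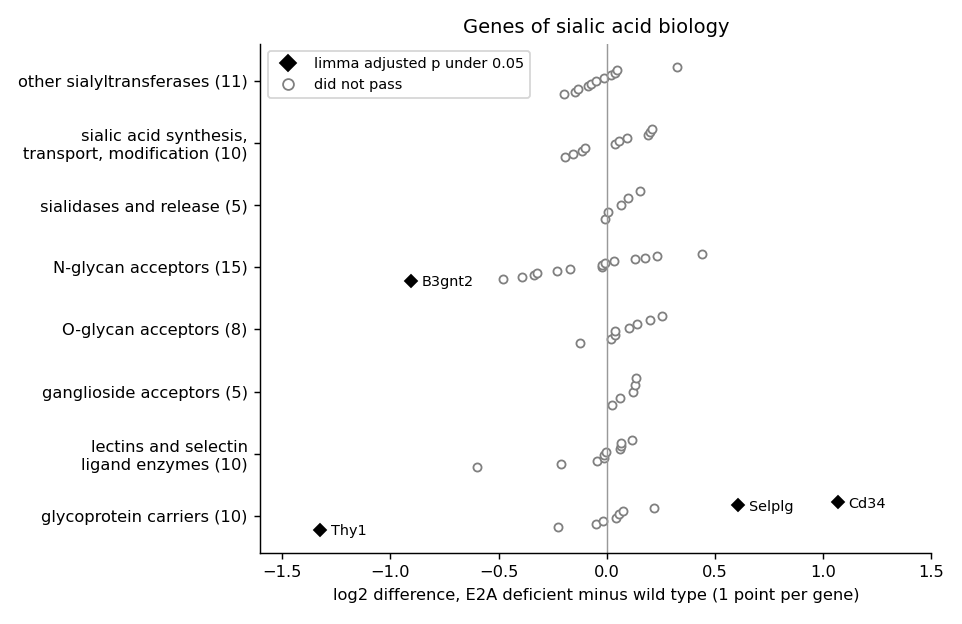
Log2 difference, E2A deficient minus wild type (horizontal axis), of the 74 measured genes of 8 lists, 1 point per gene and 1 row per list with its number of measured genes. Filled diamonds passed at a limma adjusted p under 0.05: Cd34 and Selplg to the right, Thy1 and B3gnt2 to the left.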

How the data were processed

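The authors deposited 1 intensity per probe set and array. RMA (background correction, quantile normalization and summary of probes) is named in the submitters' processing notes, with its version not given in the sources used here. The deposited intensities were linear and positive, and how they were returned to that scale is not given. Log2(intensity + 1) was fitted without further normalization or filter by limma 3.58.1 under R 4.3.3 (moderated, two-sided) over 45037 probe sets, after 64 control probe sets were left out, and p-values were adjusted by Benjamini-Hochberg, with 0.05 as the threshold. Differences are E2A deficient minus wild type. Symbols came from the array annotation, updated by Entrez identifier from RefSeq (34741 of 34945 probe sets with 1 gene matched, 0 symbols changed). A list gene was read by its brightest probe set, and adjustment stayed over all probe sets. Named were all member probe sets, Tcf3, called list genes or the 2 with the smallest p, and the 5 profiles nearest to St6gal1. Other genes were added as background on the pathway after their values were seen. The members and lists were chosen with earlier results of these data known. The fit was tested on simulated data with independent normal errors, which held no effect of RNA length or sex and so could not check for one. Precision is limited by having 3 arrays per group. Matplotlib 3.10.9 under Python 3.11.15 drew the figures.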

Additional observations from a re-analysis of the deposited data

How the results depend on the processing

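Of 286 differences of member probe sets under 13 alternatives, 279 moved by less than the pooled SD of the replicates and 0 of those called changed sign. By construction, leaving out 1 of 3 arrays cannot move a difference by that SD, and the replicate block cannot move it at all. Those settings could only count as unmoved, so the 279 is no measure of stability. Of the 7 that moved more, 5 did so with the beta-actin 5'/3' ratio in the model, both St3gal1 and all 3 St8sia1 probe sets. The rest moved with log2(intensity + 16), as a larger constant compresses dim values: St6gal1 1420928_at gave 2.32 and St8sia4 1430391_a_at 0.39. With each array left out St6gal1 1420928_at gave 2.37 to 2.63. In the same fits St8sia4 gave 0.87 to 1.05 on 1419186_a_at and 0.44 to 0.48 on 1430391_a_at. Called probe sets numbered 243 to 380 higher and 115 to 194 lower with an array left out, 309 and 162 with the replicate block, and 71 and 43 with the beta-actin 5'/3' ratio in the model. In that model 0 list genes were called higher and 1 lower, against 2 and 2, and the cause was not tested. Same-numbered arrays did not deviate together (correlations 0.0413, 0.0414 and -0.036), and the block ended no call among list genes. Leaving out 1 array gave 2 higher list genes each time and 2 to 3 lower. Among list genes not otherwise called, Fut8 passed among probe sets brighter than the median (limma adjusted p = 0.0477) and when adjusted over 1 probe set per gene (0.0381), and Mgat1 without wild-type replicate 3 (0.0385). Differences of dim probe sets are limited by the floor of the deposited intensities.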

Other observations

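Beyond the called gene B3gnt2, enzymes that process and branch N-glycans before sialic acid is added are given here with their values, and these genes were chosen after their values were seen. Of the 15 genes on that list 8 had an unadjusted p under 0.05, 6 of them lower and 2 higher in E2A-deficient cells, where 16.2% of all genes had one, and in the fit over all probe sets 1 passed. Man2a2, a Golgi mannosidase, averaged 534 in E2A-deficient and 739 in wild-type cells (log2 difference -0.48, limma adjusted p = 0.129). The branching transferases Mgat1 (-0.39, limma adjusted p = 0.215), Mgat5 (-0.34, 0.186) and Mgat4b (-0.23, 0.356) and the galactosyltransferase B4galt4 (-0.17, 0.352) were on the same side without passing. On the other side, also without passing, were Fut8, which adds the core fucose, with 1189 in E2A-deficient and 876 in wild-type cells (0.44, limma adjusted p = 0.0593), and the galactosyltransferase B4galt3 (0.23, 0.319).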
